A study of Mus musculus with 14 samples.

Results

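The Schlafen (Slfn) genes of the mouse were followed through 3 bone marrow cell populations exposed to PBS or to the cytokine interleukin-1β (IL-1β). The members were taken by symbol, after each Ensembl identifier of the count tables had been given its mouse symbol. They are Slfn1, Slfn2, Slfn3, Slfn4, Slfn5, Slfn8 and Slfn9, that is 7 of the 55487 genes in the tables and 7 of the 11 genes whose symbol starts with Slfn. The family was chosen by its differences between IL-1β and PBS in these same libraries, with no numeric threshold. The IL-1β differences of the members are therefore given as a description, with no p-value printed for a member. Whether a member was called is stated to be read beside the share of all genes called, and a call on the values that chose the family is no independent evidence. The question of the study was how chronic IL-1β acts on marrow cells that carry Jak2V617F, the activating kinase mutation of myeloproliferative neoplasms.

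All LSK and LK libraries came from one model. Marrow of Mx1Cre;Jak2VF/+ mice, which carry 1 conditional Jak2V617F knock-in allele on the C57BL/6 background, was transplanted into lethally irradiated C57BL/6 recipients. The allele had been switched on in the donors by polyinosine-polycytosine through Cre under the interferon-responsive Mx1 promoter, so the stroma and any surviving blood cells of the host lacked it. The reporting summary of the study gives the age of its mice as 6 to 8 weeks. PBS-treated and IL-1β-treated recipients alike thus shared the mutation, the Cre, the inducer and the irradiation. Recipients received PBS or IL-1β at 0.5 µg per dose by intraperitoneal injection, 3 doses a week for 16 weeks. LSK cells (Lin-Sca1+c-kit+) are the fraction that holds the stem and multipotent progenitor cells, and LK cells (Lin-c-kit+) are the myeloid progenitors. For each of these there were 3 PBS and 2 IL-1β libraries. MSC, mesenchymal stromal cells, were grown for 21 days from the marrow of C57BL/6 mice without the mutation and then kept in PBS or in IL-1β at 5 ng/ml for 72 h, with 2 libraries each. IL-1β thus reached LSK and LK cells in the animal for weeks and MSC in the dish for hours, so the responses are set side by side and were not compared by a test.

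Schlafen proteins take their name from the German word for sleep, after the growth arrest that Slfn1 causes in developing T cells. The short members, Slfn1 and Slfn2, hold only the Schlafen core, which in several members binds or cuts RNA. Slfn3 and Slfn4 are of intermediate length, and Slfn5, Slfn8, Slfn9 and Slfn14 carry a further helicase-like part. Slfn2 is needed for the quiescence and survival of T cells and monocytes. Slfn4 is known from macrophages and other myeloid cells, and several members are induced by type I interferon. IL-1β itself acts through its receptor and MyD88 on NF-κB.

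In the annotation behind the count tables (GRCm38) the 7 members lay within 263806 bases of chromosome 11. Slfn5 (ENSMUSG00000054404) occupied chr11:82951349-82964840 on the plus strand. Slfn9 (ENSMUSG00000069793, chr11:82978390-82991830) and Slfn8 (ENSMUSG00000035208, chr11:83002158-83020810) followed on the minus strand. Slfn2 (ENSMUSG00000072620, chr11:83065112-83070678), Slfn1 (ENSMUSG00000078763, chr11:83116849-83122670), Slfn4 (ENSMUSG00000000204, chr11:83175186-83190216) and Slfn3 (ENSMUSG00000018986, chr11:83191330-83215154) lay on the plus strand. All 7 are annotated as protein-coding, and each value below is the read count over the exons of the gene. From Slfn5 to Slfn14 there was no other protein-coding gene.

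**Figure D1:**
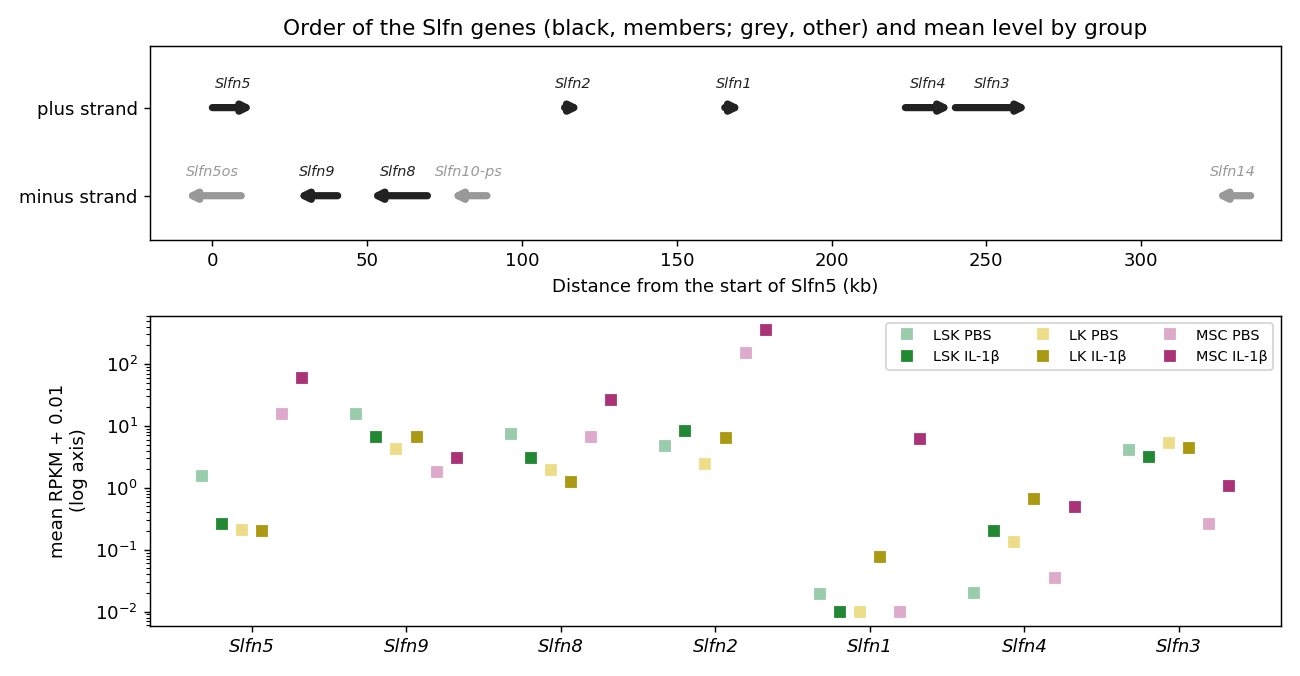
Upper panel, position and strand of the Slfn genes of chromosome 11 as distance in kb from the start of Slfn5. Lower panel, mean RPKM plus 0.01 of each member in each of the 6 groups, on a log axis. Slfn2 in MSC stands highest, with mean RPKM of 149 under PBS and 359 under IL-1β.

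By coding sequence there were 2 close pairs among the members. The longest annotated coding sequences of Slfn8 and Slfn9, each of 2730 bases, were 92.7% identical over their whole length. Those of Slfn3 (1920 bases) and Slfn4 (1806 bases) were 92.3% identical over 1785 aligned bases. Slfn1 and Slfn2, with 1011 and 1134 coding bases, were 71.3% identical to each other. Every other pair among the 7 members was between 57.6% and 75.3% identical. The near-identical pairs did not have the same levels in these libraries.

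RefSeq promoter windows (250 bases before to 50 after the start, GRCm38.p6) were searched on both strands for 3 motifs. The ISRE core of interferon-stimulated promoters was taken as GAAA, a gap of 2 bases and GAAA, the GAS core as TTC, a gap of 3 bases and GAA, and the NF-κB site as GGGA, a gap of 2 bases and TTCC. The 7 members had 8 windows. Slfn5, Slfn8 and Slfn9 each held an ISRE core, against 3.43% of all 32817 windows. None of the 7 members held the GAS core (8.29% of all windows) or the NF-κB site (1.47%), and Slfn1, Slfn2, Slfn3 and Slfn4 held none of the 3. No match says only that these letters are not in these windows. Slfn5, Slfn8 and Slfn9 are also the members that differed between LSK and LK cells, and a link of the motif to these levels was not tested. Slfn8 and Slfn9 are a close pair, and their stretches below shared 37 of 50 bases. All stretches around the matches read 5′ to 3′ on the strand of the gene, with the match in capitals, which in Slfn8 and Slfn9 lies on the opposite strand. Their positions are chr11:82951927-82951976 (plus strand) for Slfn5, chr11:83020829-83020878 (minus strand) for Slfn8 and chr11:82991846-82991895 (minus strand) for Slfn9.
Slfn5: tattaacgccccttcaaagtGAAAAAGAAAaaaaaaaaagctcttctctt
Slfn8: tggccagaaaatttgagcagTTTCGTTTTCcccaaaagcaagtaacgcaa
Slfn9: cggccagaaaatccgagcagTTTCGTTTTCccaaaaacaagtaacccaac

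The libraries differed in depth and in the cells they represent. Total counts ran from 12172400 to 18544346 in the PBS libraries of LSK and LK cells, from 4393233 to 8641124 in their IL-1β libraries and from 5834909 to 30871055 in MSC. All 8 LSK markers (Ly6a and Hlf among them) were higher in LSK than in LK cells under PBS. The summed CPM of 6 LK markers was 2173 to 2780 in LSK cells under PBS and 7860 to 8000 under IL-1β, while that of the 8 LSK markers was 1347 to 1698 and 750 to 855. Mpo carried most of the LK marker sum, at 1760 ± 225.8 and 6616 ± 33.2 CPM, whereas Kit was at 474 ± 81.6 and 315 ± 66.8 and Klf1 at 32.7 ± 7.42 and 34.2 ± 27.2. MSC libraries held 12 of 12 macrophage markers, at a summed 16360 to 20750 CPM under PBS and 41930 to 43080 under IL-1β, against 1753 to 3423 and 4741 to 5132 for the 10 mesenchymal markers. Of these 10, Lepr was at 0 in both PBS libraries. The cultures labelled MSC thus contained macrophage transcripts as well as those of stromal cells. MSC PBS replicate 3 had 0 reads of Xist, the transcript of the inactive X chromosome, and the other 3 MSC libraries had between 325 and 2103.

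Levels of one gene across libraries are given as CPM, counts scaled to library size with TMM factors over the 14 libraries, and levels of different genes as RPKM, CPM per kb of exon. In bulk samples, fewer cells of a type and less RNA per cell cannot be told apart. Under PBS the summed RPKM of the 7 members was 33.6 ± 7.35 (SD, n = 3) in LSK cells, 14.1 ± 3.04 (n = 3) in LK cells and 172.8 ± 1.20 (n = 2) in MSC. By mean share the family had a different leading member in each population, but in LK cells this rested on replicate 2. Slfn9 made up 47.2% of the summed RPKM in LSK cells (45.6 to 50.1%), Slfn3 made up 38.8% in LK cells (31.4 to 51.0%), and Slfn2 made up 86.2% in MSC (85.9 to 86.4%). In LK replicate 2 Slfn3 was at 51.0% and Slfn9 at 17.0%. Slfn9 was slightly ahead of Slfn3 in LK replicate 1 (36.1 against 34.1%) and replicate 3 (33.0 against 31.4%).

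**Figure D2:**
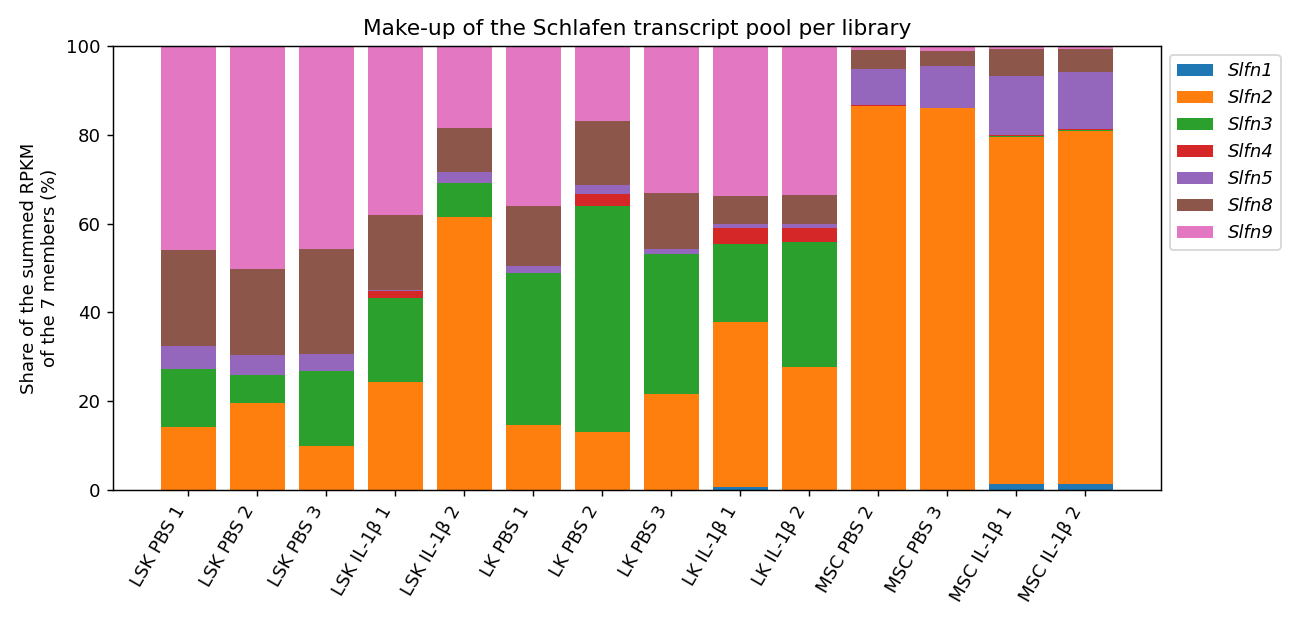
Share of each member in the summed RPKM of the 7 members (percent), 1 bar per library. Slfn9 leads in the 3 LSK PBS libraries, and Slfn2 takes between 78.3 and 86.4% of the bar in the 4 MSC libraries.

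In LSK cells under PBS, the order by mean RPKM was Slfn9 (15.8 ± 2.98), Slfn8 (7.28 ± 1.83), Slfn2 (4.81 ± 1.56), Slfn3 (4.14 ± 2.12) and Slfn5 (1.55 ± 0.544), each with n = 3. The range of Slfn9 lay above that of Slfn8, whereas Slfn8, Slfn2, Slfn3 and Slfn5 overlapped from each to the next. In LK cells under PBS the order was Slfn3 (5.33 ± 0.820), Slfn9 (4.17 ± 1.95), Slfn2 (2.42 ± 1.22), Slfn8 (1.90 ± 0.298) and Slfn5 (0.201 ± 0.0188). Of these neighbours only Slfn8 and Slfn5 had ranges that did not overlap. In MSC under PBS the order was Slfn2 (149.0 ± 0.449), Slfn5 (15.3 ± 1.58), Slfn8 (6.51 ± 1.01), Slfn9 (1.77 ± 0.207) and Slfn3 (0.249 ± 0.0257), each with n = 2, and no neighbours overlapped. Slfn3 and Slfn9 were thus low in MSC, where Slfn2 and Slfn5 were high.

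Slfn1 and Slfn4 were at or near 0 under PBS. Slfn1, the member first tied to T cell growth arrest, had 0, 0 and 1 reads in the 3 LSK libraries, 0 reads in each of the 3 LK libraries and 0 in both MSC libraries. Slfn4, the myeloid member, had 1, 0 and 1 reads in LSK cells, 1, 26 and 1 in LK cells and 1 and 0 in MSC. LK PBS replicate 2 alone was above the limit of 3 reads that a count of 0 allows. For Slfn1 that limit was 0.591 and 0.274 CPM in the 2 MSC PBS libraries. These limits cover counting error only.

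**Figure D3:**
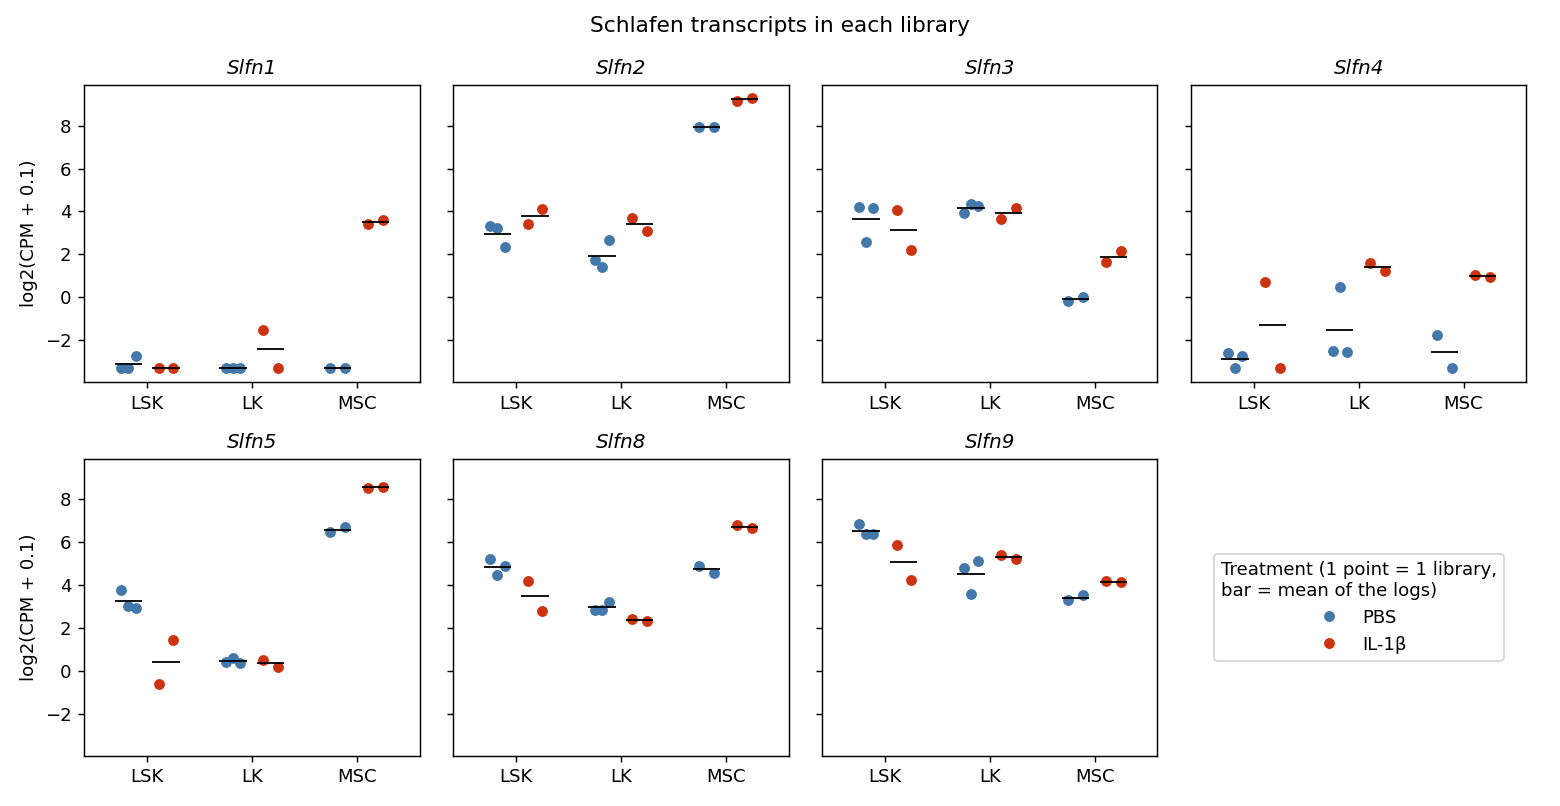
Level of each member in each library as log2(CPM + 0.1), by population, with PBS libraries in blue and IL-1β libraries in red (1 point = 1 library, bar = mean of the logs). In MSC both IL-1β points lie above both PBS points for all 7 members, and in LSK both IL-1β points of Slfn5, Slfn8 and Slfn9 lie below the 3 PBS points.

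The helicase-type members Slfn5, Slfn8 and Slfn9, stood higher in LSK than in LK cells under PBS. Slfn5, a nuclear member known as interferon-inducible, had 13.7, 7.99 and 7.61 CPM in LSK replicates 1, 2 and 3 and 1.25, 1.41 and 1.17 CPM in LK. Slfn8, a long member with a role in T cells, had 37.1, 22.1 and 30.1 CPM in LSK and 7.17, 6.98 and 9.18 CPM in LK. Slfn9, its close relative, had 114.6, 83.1 and 84.6 CPM in LSK and 28.0, 12 and 34.6 CPM in LK. In all 3 genes every LSK library was above every LK library. The log2 differences were 3.02 (SE 0.411) for Slfn5, 2.03 (SE 0.271) for Slfn8 and 2.01 (SE 0.364) for Slfn9, all past the threshold (edgeR's quasi-likelihood test, adjusted p under 0.05 over all genes and a log2 difference over 0.5). These were 3 of 5 members tested, against 18.4% of 12737 genes called higher in LSK, and the same 3 were called under every alternative and with any library left out.

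The other members did not pass between LSK and LK cells. Slfn2 had 9.85, 9.12 and 5.04 CPM in LSK and 3.19, 2.56 and 6.35 CPM in LK, a log2 difference of 1.07 (SE 0.465) with overlapping groups. Slfn3 had 18.6, 5.80 and 18.01 CPM in LSK and 15.1, 20.6 and 18.8 CPM in LK, a log2 difference of -0.26 (SE 0.411). Slfn3 was the one tested member with a higher mean in LK, and LSK replicate 2 alone had a low value. Slfn1 and Slfn4 had too few reads to be tested here.

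No member passed the test between IL-1β and PBS in LSK cells. The values of Slfn5, Slfn8 and Slfn9 lay below those of PBS and the values of Slfn2 above, as follows. Slfn5 was at 0.547 and 2.66 CPM in the 2 IL-1β libraries, from 5 and 12 reads, a log2 difference from PBS of -2.71 (SE 0.749). Slfn8 was at 18.1 and 6.87 CPM (log2 difference -1.23, SE 0.442) and Slfn9 at 59.2 and 18.6 CPM (log2 difference -1.26, SE 0.431). In each of the 3, both IL-1β libraries were below the lowest PBS library, and replicate 2, the library with the fewest reads of all, was the lower in Slfn8 and Slfn9 and the higher in Slfn5. Without IL-1β replicate 2 the log2 difference was -4.13 in Slfn5, -0.71 in Slfn8 and -0.66 in Slfn9, and without IL-1β replicate 1 it was -1.88, -2.12 and -2.34. The sizes thus depended on which of the 2 IL-1β libraries was kept.

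Slfn2, the quiescence factor, was at 10.6 and 17.3 CPM in LSK cells under IL-1β, both above the highest PBS library (log2 difference 0.80, SE 0.45). Slfn3 was at 16.9 and 4.43 CPM and overlapped the PBS range (log2 difference -0.39, SE 0.635), and the estimate was 0.26 without IL-1β replicate 2 and -1.68 without IL-1β replicate 1. Slfn4 had 14 reads in IL-1β replicate 1 and 0 in replicate 2, against 2 in the 3 PBS libraries together. The pooled ratio of Slfn4 was 25.0 with an exact interval of 5.74 to 226.5, which covers counting error only and rests on replicate 1. Slfn1 had 0 reads in both.

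The edgeR quasi-likelihood test called 0 of the 5 members tested in LSK cells, against 0.632% of 13132 genes called in either direction. At an unadjusted p under 0.05 there were 3, DESeq2 called 1 (Slfn5) and limma-voom 0. The share of all genes passing these other rules is not given here, so these counts are not read as a result about the members. Groups that did not overlap were found in 3 members lower (21.1% of all genes) and 1 higher (18.3%). With the replicate number as a block, Slfn5 and Slfn9 were called, but the block also raised the calls over all genes. PBS and IL-1β libraries share only that number (deviation correlation 0.03), so these calls are not read as a result either. The summed CPM of 8 neutrophil markers was 1.13 to 7.27 under PBS and 13.7 to 62.3 under IL-1β, with 1 to 4 of the 8 at 0 in each library. The part of this and of the higher LK marker sum in the Slfn differences was not tested.

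In LK cells no member passed the test either. The IL-1β values of Slfn2, Slfn4 and Slfn9 lay above those of PBS and the values of Slfn8 below. Slfn2 was at 12.9 and 8.47 CPM, above all 3 PBS libraries (log2 difference 1.49, SE 0.425). Slfn4 was at 2.93 and 2.23 CPM from 24 and 15 reads, against 0.0779, 1.30 and 0.0690 CPM under PBS (log2 difference 2.36, SE 1.03). Slfn9 was at 42.2 and 36.9 CPM, above the 28.0, 12 and 34.6 CPM of PBS (log2 difference 0.75, SE 0.432). The gaps between groups were narrow in Slfn9, and for Slfn4 the size rested on PBS replicate 2, without which the log2 difference was 5.00 and the gene was called. Leaving out PBS replicate 3 instead moved Slfn2 to 2.0, and Slfn2 was then called.

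Slfn8 was at 5.25 and 4.91 CPM in LK cells under IL-1β, below the lowest PBS value of 6.98 (log2 difference -0.54, SE 0.279). Slfn5 was at 1.34 and 1.04 CPM (log2 difference -0.02, SE 0.547) and Slfn3 at 12.6 and 17.7 CPM (log2 difference -0.20, SE 0.224), and both overlapped the PBS range. Slfn1 had 2 reads in replicate 1 and 0 in replicate 2. Slfn8 and Slfn9, although 92.7% identical in coding sequence, thus lay on opposite sides of their PBS levels in LK cells, and on the same side in LSK cells.

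The same test called 0 of 6 members in LK cells, against 9.34% of 12835 genes called in either direction. At an unadjusted p under 0.05 there was 1 (Slfn2), DESeq2 called 1 (Slfn2) and limma-voom 0, again without the share of all genes under these rules. There were 3 members with both IL-1β libraries above PBS (19% of all genes) and 1 with both below (29.4%). With the replicate block Slfn2 and Slfn9 were called, but here too the block raised the calls over all genes. It joins PBS and IL-1β libraries by number only (deviation correlation -0.047), so these calls are not read as a result. The summed CPM of the neutrophil markers was 3.41 to 15.1 under PBS and 139.7 to 326 under IL-1β, with S100a8 and S100a9 called higher and 1 to 3 of the 8 markers at 0 in each library. Among the progenitor markers Mpo, Elane and Cpa3 were called higher in LK cells under IL-1β and Gata1, Klf1 and Flt3 lower, and the 6 LK markers summed to 4523 to 8510 CPM under PBS and 13370 to 15400 CPM under IL-1β. The part of these markers in the Slfn levels was not tested.

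The difference between the LSK and the LK response was tested as an interaction over the 10 libraries. It was called in 0 of 6 members by edgeR's quasi-likelihood test, against 0.0289% of 13839 genes. At an unadjusted p under 0.05 there were 2, for which the share of all genes is not given, and DESeq2 and limma-voom called 0 each. The largest estimates, as log2 response in LSK minus LK, were -2.74 (SE 0.90) for Slfn5 and -2.05 (SE 0.645) for Slfn9. A p that misses the threshold does not show that the responses were alike.

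**Figure D4:**
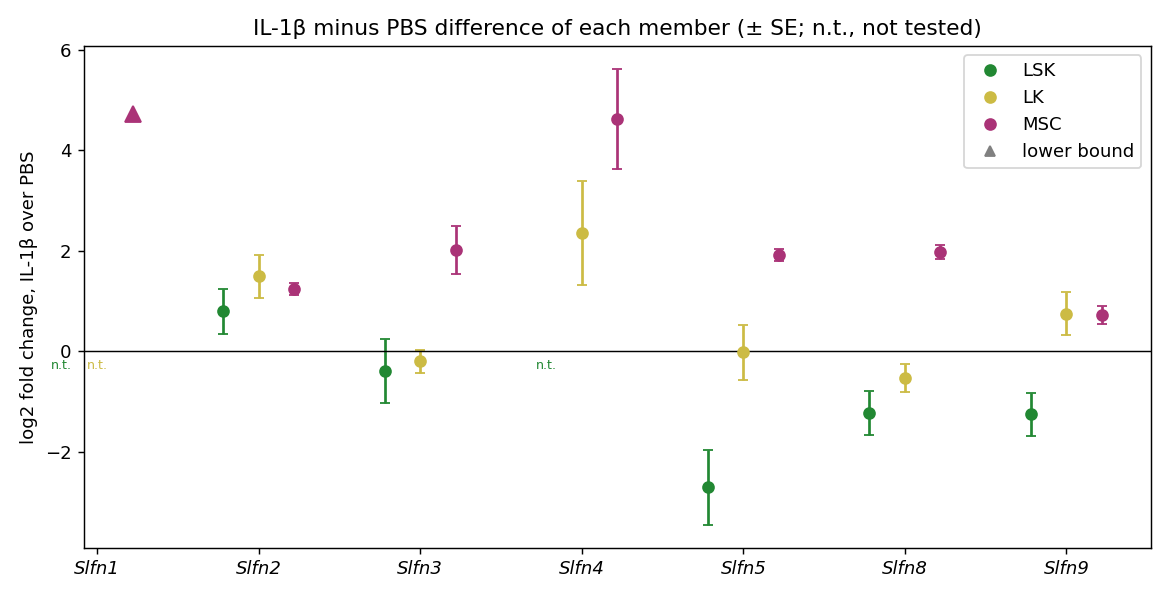
Log2 fold change of IL-1β over PBS for each member in LSK, LK and MSC (points, edgeR estimate; bars, SE; triangle, lower bound of Slfn1 in MSC at 4.72; n.t., not tested for too few reads). All MSC values are above 0, from 0.72 for Slfn9 upwards, and 4 of the 5 LSK values are below 0.

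In MSC the IL-1β libraries lay above the PBS libraries for all 7 members. Slfn2 was at 247 and 248.5 CPM under PBS and at 578 and 618 CPM under IL-1β (log2 difference 1.24, SE 0.114). Slfn5 went from 89.9 and 104.0 to 374 and 379.7 CPM (log2 difference 1.92, SE 0.117), and Slfn8 from 29.6 and 23.7 to 111 and 101.5 CPM (log2 difference 1.98, SE 0.145). These 3 had the highest levels of the 7 in MSC. By RPKM, Slfn2 was still the leading member under IL-1β, at 359.4 ± 17.0 (SD, n = 2), with Slfn5 at 59.6 ± 0.647 and Slfn8 at 26.02 ± 1.72. Its share of the summed RPKM was 78.9% under IL-1β and 86.2% under PBS.

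Slfn1 had 0 reads in both PBS libraries of MSC and 259 and 115 in the IL-1β libraries, or 10.7 and 12.1 CPM. Against a floor of 3 reads per library it was at least 26.4-fold higher. In the 10 LSK and LK libraries the same gene never had more than 2 reads. Slfn4 had 1 and 0 reads under PBS and 47 and 17 under IL-1β, a pooled ratio of 30.5 with an exact interval of 5.28 to 1222 for counting error. Both genes were near the limit of detection in MSC without the cytokine.

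Slfn3 was at 0.788 and 0.912 CPM in MSC under PBS, from 4 and 10 reads, and at 2.97 and 4.33 CPM under IL-1β (log2 difference 2.02, SE 0.475). Slfn9 was at 9.66 and 11.4 CPM and then at 18.02 and 17.7 CPM (log2 difference 0.72, SE 0.173). Slfn9 had the smallest difference of the 7 and was the one not called. Even under IL-1β, Slfn3 was below its level in LSK or LK cells under PBS, where its lowest library was at 5.80 CPM.

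In MSC 6 of 7 members were called higher, against 7.14% of 13239 genes, and 7 of 7 did not overlap in the upward direction, against 33.3%. Slfn1 and Slfn4, with at most 1 read in a PBS library, could pass the filter only through their IL-1β libraries. Any call or gap between groups could thus only be upward for these 2, and Slfn3, with 4 and 10 PBS reads, was also low. Slfn2, Slfn5 and Slfn8 were called with more PBS reads, and Slfn9 was not called. The median log2 difference of the members was 1.98, with Slfn1 at its bound or not, and that of all genes was 0.00. Calls were lost when either IL-1β library was left out, which leaves 1 library in that group. The log2 differences of Slfn2, Slfn5, Slfn8 and Slfn9 stayed within 0.63 and 2.16 whichever library was left out. That of Slfn3 ran from 1.71 to 2.32 and that of Slfn4 from 3.14 to 7.82, so the size for Slfn4 was unstable. Macrophage transcripts were also higher under IL-1β, with 7 of 12 markers called (Adgre1, C1qa, Csf1r, Fcgr1, Lyz2, Mertk and Mrc1) and none of the 12 at 0 in any MSC library. Lyz2, a myeloid lysozyme, was at 7126 ± 1849 CPM under PBS and 24960 ± 108.7 CPM under IL-1β, whereas Cd68 was at 1558 ± 337.4 and 1156 ± 166.9 CPM. The part of the macrophage share in the Slfn differences was not tested.

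Interferon-stimulated genes were followed as a list of 25, since several Slfn genes are known to respond to interferon. In MSC 25 of 25 were called higher under IL-1β, with a median log2 difference of 2.85 beside the 0.00 of all genes. Irf7, the interferon regulatory factor, had a log2 difference of 4.41 (SE 0.329), Ifit1 of 3.85 (SE 0.211) and Isg15 of 2.91 (SE 0.213), with adjusted p-values of 0.00367, 0.00128 and 0.00211 by edgeR's quasi-likelihood test. In LSK cells 24 of 25 had a lower estimate under IL-1β, with a median of -1.41, and 1 was called, Ifi44, whose 130 to 147 reads per PBS library stood against 0 in both IL-1β libraries. In LK cells 20 could be tested, the median was -0.51 and 1 was called lower (Irf9). Under PBS 13 of the 25 were called higher in LSK than in LK cells and none lower, against 18.4% of 12737 genes called higher. The median was 1.30, beside 0.04 for all genes. The medians of the members and of this list thus had the same sign in LSK cells and MSC. In LK cells the member median was 0.37, but of the 6 estimates 3 were above and 3 below 0. Slfn4, with few reads, was among those above (2.36), and without it the middle estimate is that of Slfn5 at -0.02. The sign of the LK member median is therefore not compared. The comparisons within a population share their control libraries for both lists.

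The 12 NF-κB feedback genes, which answer IL-1β signalling directly in many cells, had a smaller median than the interferon list in MSC. There 8 of 12 were called higher with a median of 0.92. Nfkbia, the inhibitor of NF-κB, had a log2 difference of 1.03 (SE 0.164, adjusted p = 0.0187 by edgeR's quasi-likelihood test), and Tnfaip3 one of 0.28 (SE 0.154, adjusted p = 0.289). In LSK cells 0 of 12 were called and all 12 estimates were below 0, with a median of -0.71, and in LK cells 1 was called higher (Bcl3) with a median of 0.11. The medians of this list and of the members thus had the same sign in LSK cells and MSC. In LK cells the member median of 0.37 was above 0 only with the low-count Slfn4 included, so its sign is not compared here either. Whether the members go with either list was not tested. Under PBS 7 of the 12 were called higher in LSK than in LK cells, against 18.4% of all genes. Their median was 1.33, beside 0.04 for all genes. Of the 7 members, 6 in MSC had a larger log2 difference than Nfkbia. Because the family was chosen by these differences, this order is no evidence.

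**Figure D5:**
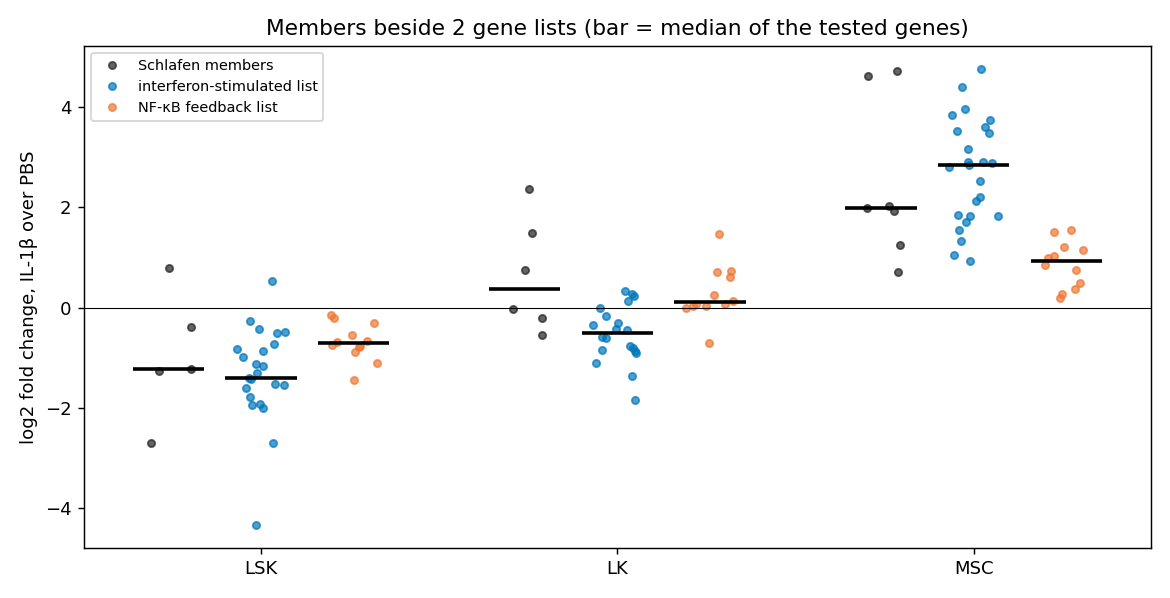
Log2 fold change of IL-1β over PBS for the tested Schlafen members (black, Slfn1 in MSC at its bound), the interferon-stimulated list (blue) and the NF-κB feedback list (orange), with the median as a bar. Genes with 0 reads in a whole group are counted in the median and not drawn. The member medians are -1.23 in LSK, 0.37 in LK and 1.98 in MSC.

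The protein-coding neighbours of the cluster, 5 on each side, are given as a description. Of these 10, 5 were tested in MSC and 1 was called higher, Rffl, a ubiquitin ligase gene (log2 difference 1.05, SE 0.158, adjusted p = 0.0159 by edgeR's quasi-likelihood test). In LSK cells 7 were tested and 1 was called higher, 1700020L24Rik (log2 difference 2.51, SE 0.457), and in LK cells 6 were tested and the same gene was called (2.04, SE 0.328). Of all genes, 7.14% were called higher in MSC, and 0.632% in LSK and 9.34% in LK cells in either direction. Between LSK and LK cells under PBS 1 of 7 was called, Nle1, lower in LSK (log2 difference -1.12, SE 0.205). The median of the tested neighbours under IL-1β was 0.29 in MSC, -0.23 in LSK cells and -0.01 in LK cells. That of the members was 1.98, -1.23 and 0.37. Because the family was chosen by these differences and the neighbours were not, a larger median in the members is no evidence.

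Of the 4 Slfn genes outside the member list, only the pseudogene had enough reads to be tested. Slfn10-ps, a transcribed pseudogene between Slfn8 and Slfn2, was at 9.70 ± 0.504 CPM in LSK and 9.69 ± 0.744 CPM in LK cells under PBS (SD, n = 3), and was called in none of the comparisons by edgeR's quasi-likelihood test, although at an unadjusted p under 0.05 it was lower in LK cells under IL-1β (log2 difference -0.63, SE 0.25). In MSC its 2 PBS libraries stood apart, at 2.17 and 18.9 CPM. Slfn14, a ribosome-associated endonuclease gene, had at most 3 reads in any library, and Slfnl1, a Slfn-like gene on chromosome 4, at most 2. Slfn5os, the antisense gene of Slfn5, had 24 and 19 reads in MSC under IL-1β and at most 2 in any other library. It shares 559 exon bases with Slfn5 on the opposite strand, and the counting used strand.

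Over the 14 libraries, the genes most like each member in log2 CPM were listed as a description, and the values are driven in large part by the gap between MSC and sorted cells. Slfn2 was nearest to Csf2rb2 (Pearson r = 0.992), Grn (0.991) and Man2b1 (0.99). Slfn5 was nearest to Nfkb2 (0.99), Zswim6 and Ifnar1, and Slfn8 to Parp14 (0.974), Birc3 and Prex1. Slfn1 was nearest to Fpr2 (0.986), and Slfn9 to Dock11 (0.944), Ggt1 and Stk4. Slfn3 was nearest to Zdhhc23 (0.972) and Slfn4, with few reads, to Ero1l (0.836). Among the members, Slfn2 and Slfn5 had r = 0.907 and Slfn5 and Slfn8 r = 0.867, while Slfn2 and Slfn3 had r = -0.827 and the close pair Slfn8 and Slfn9 had r = -0.032.

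The counting bears on the close pairs. Of the 50-base stretches in annotated transcripts (GENCODE M21), 15.6% in Slfn3, 10.8% in Slfn4, 14.6% in Slfn8 and 11.5% in Slfn9 also occurred in a transcript of another gene, most often Slfn4, Slfn3, Slfn10-ps and Slfn10-ps respectively. At 100 bases the shares were 2.92%, 0.271%, 3.38% and 3.71%. Slfn1, Slfn2 and Slfn5 shared between 0.606 and 4.27% at 50 bases. Levels of Slfn3, Slfn4, Slfn8 and Slfn9 are uncertain to the extent that read pairs fell in such stretches.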

How the data were processed

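RNA of sorted LSK and LK cells and of cultured MSC was depleted of rRNA and sequenced as strand-marked pairs. The authors trimmed the reads with fastp 0.20.0, aligned them to GRCm38 with HISAT2 2.0.1 and SAMtools 1.10 and deposited integer counts per Ensembl gene from featureCounts 2.0.2 (read pairs, reverse strand, by default without multi-mapping or ambiguous pairs), in 1 table per population. The MSC table's header names a further IL-1β library that has no count column and is not analysed here. All sample columns were mapped to labels.

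Counts were tested within each population with edgeR 4.0.16 in R 4.3.3 (filterByExpr, TMM, robust quasi-likelihood fit). Benjamini-Hochberg adjustment ran over all genes tested. A gene was called at an adjusted p under 0.05 with a log2 difference over 0.5 in size, and SE is the log2 difference over the square root of F. LSK was set against LK under PBS, and the difference of responses was an interaction. CPM and RPKM used one TMM scaling of the 14 libraries. Alternatives were DESeq2 1.42.0, limma-voom (limma 3.58.1), other scalings and filters, a joint fit, a replicate block and each library left out. On simulated data with 4-fold changes (log2 of 2), the share of changed genes recovered was 69.1% for LSK, 84.1% for LK, 83.3% for MSC, 80.1% for LSK against LK and 51.8% for the interaction. In the same order, 134, 164, 165, 149 and 101 changed genes were recovered. Unchanged genes called falsely numbered 8, 17, 28, 14 and 7, the most in MSC.

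For same-numbered LSK and LK libraries under PBS, the deviations from the group means had correlations of 0.19, 0.115 and 0.446. The value of replicate 2 (0.115) was below the highest of the pairs with unlike numbers. The PBS pairs with unlike numbers ran from -0.357 to 0.152, and the same-numbered IL-1β pairs were at 0.084. The labels do not give the pairing. The main fit of LSK against LK cells was therefore unpaired, and the pairing entered only as the replicate block among the alternatives. The block changed no call in that comparison.

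The named genes were the 7 members, the other Slfn genes, 5 coding neighbours on each side, the 2 gene lists and the 3 genes most like each member. The values of 1 list gene are not reported here. Members and lists were chosen with earlier results of these data known. The labels do not tie libraries to separate animals or cultures, so p-values measure the spread between these samples, which may be technical. Of 55487 identifiers, 55227 were found in GENCODE M21. Promoters came from RefSeq (all 7 members matched). Sequences were compared with Biopython 1.88 and figures drawn with matplotlib 3.10.9.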

Additional observations from a re-analysis of the deposited data

Results flagged for a closer look

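For some Slfn members the IL-1β libraries lay below all PBS libraries in one population and above all of them in another. In LSK and LK cells none of these members passed edgeR's quasi-likelihood test, and groups that do not overlap in one direction occurred in 18.3 to 33.3% of all genes, depending on the population and direction. For LSK cells against MSC, the log2 response was lower in LSK by a difference of -4.63 for Slfn5, -3.21 for Slfn8 and -1.98 for Slfn9. For LK cells against MSC it was -2.52 for Slfn8. These 4 differences were not tested, and the exposure differed as well (16 weeks in mice that carried Jak2V617F, 72 h in cultures that did not). For LSK against LK cells the difference between the separate fits was -2.01 for Slfn9, and the interaction in the joint fit (-2.05, SE 0.645) did not pass the adjusted threshold by edgeR's quasi-likelihood test.

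Slfn5os lay outside the main measurement. Its reads in the 2 MSC IL-1β libraries summed to 43, against 1 in the 2 MSC PBS libraries, and it was too low to be tested in any comparison.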

How the results depend on the processing

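For LSK cells, the 0 members called became 1 with DESeq2 (Slfn5), 3 without a filter on low counts (Slfn5, Slfn8 and Slfn9), 2 with the replicate block (Slfn5 and Slfn9) and 1 in the joint fit of LSK and LK libraries (Slfn5), and stayed at 0 with any library left out. For LK cells, 0 became 1 with DESeq2 (Slfn2), 2 without a filter (Slfn2 and Slfn4) and 2 with the replicate block (Slfn2 and Slfn9), and was 0 to 1 with a library left out. The replicate numbers of PBS and IL-1β libraries share only a number, with deviation correlations of 0.03 in LSK and -0.047 in LK, and the block moved the calls over all genes from 83 to 702 in LSK and from 1199 to 2331 in LK. For MSC the 6 called members were 5 to 7 under the other alternatives and 0 to 7 with a library left out, which leaves 1 library in a group that is then assumed to vary like the other. Slfn3 was not called in MSC by DESeq2 or limma-voom, or with at least 10 reads in 2 libraries required, and Slfn9 was called by limma-voom, without a filter and without either PBS library. No paired analysis was possible for MSC because its treatments share only replicate number 2. For LSK against LK cells under PBS the count was 3 throughout. The interaction count of 0 became 1 without a filter (Slfn9). The cause of these changes was not tested. No called value of a member changed sign. With library totals in place of TMM, the mean CPM of Slfn2 in MSC was 211 under PBS and 477.1 under IL-1β.

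The low depth of the IL-1β libraries of LSK cells limits Slfn5, which rests on 5 and 12 reads there, and Slfn1 and Slfn4 in LSK and LK cells, where counts of 0 to 26 cannot resolve small differences.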
